A study of Glycine max with 4 samples.

Results

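A set of 126 transcript models of 119 soybean loci was at least 4-fold lower in leaves under salt than in leaves without salt, both in the absence and in the presence of melatonin. The set was drawn from 55787 transcript models of 46367 loci. RPKM, the read count scaled to transcript length and to the total counted reads of the library, was recomputed from the read counts, and 0.1 was added to every value. A transcript was kept where this sum was at least 1 in both H2O and Mt, where NaCl was at least 4-fold below H2O (NaCl:H2O) and where NaCl+Mt was at least 4-fold below Mt (NaCl+Mt:Mt). The members were therefore chosen on these 2 differences, which are given as a description and were not tested.

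Soybean (Glycine max) seedlings, 3 weeks old by the labels and younger by the results text of the study, received 1% NaCl with 100 µM melatonin (NaCl+Mt), 1% NaCl alone (NaCl), 100 µM melatonin alone (Mt) or water (H2O), and total RNA of leaves was sequenced. The cultivar named for the greenhouse plants was SuiNong 28. Melatonin came from an ethanol stock diluted first in pure ethanol and then to 100 µM in water, so the melatonin solutions also held ethanol. Neither matching ethanol in the other solutions, nor the treatment duration, nor the number of plants in a library was given in the sources used here. Each condition had 1 library, so no difference between conditions has a replicate check, no p-value was computed, and the 95% intervals given with single transcripts cover counting error only. In bulk leaf RNA, fewer cells of a type and less RNA per cell cannot be told apart.

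Salt stress restricts water uptake and brings toxic ions into the shoot, and leaves respond with slower growth, often with lower transcript levels of genes for wall synthesis and cell expansion. Pectin methylesterases remove methyl groups from wall pectin and so change how stiff the wall is. Melatonin is an indoleamine made from tryptophan that plants as well as animals produce.

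The libraries held 28868062 counted reads in NaCl, 22908979 in H2O, 36945028 in NaCl+Mt and 23479688 in Mt. Leaf identity was visible in rbcS, the small subunit of the carbon-fixing enzyme Rubisco, whose Glyma13g07610.1 model stood at 4429 RPKM in NaCl against 1300 RPKM in H2O, and at 3530 RPKM in NaCl+Mt against 6992 RPKM in Mt. Of 37517 transcripts that reached the minimum in H2O and Mt, 3.48% were at least 4-fold lower in NaCl:H2O, 3.91% were at least 4-fold lower in NaCl+Mt:Mt, and 0.336% met both limits and formed the set. The 126 members were 9.64% of the 1307 transcripts past the first limit and 8.58% of the 1468 past the second.

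**Figure D1:**
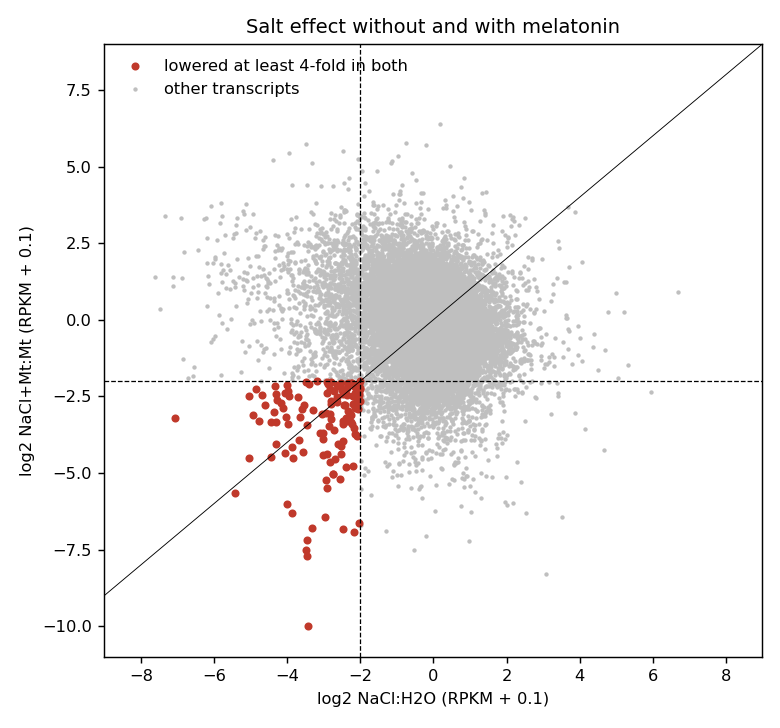
Log2 difference of each transcript in NaCl:H2O (horizontal axis) and in NaCl+Mt:Mt (vertical axis), on RPKM + 0.1, with 1 library per condition. Red points are the 126 members, grey points are other transcripts, dashed lines mark the 4-fold limits and the diagonal marks equal differences. The members fill the lower left corner by construction and spread to both sides of the diagonal.

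The members were minor transcripts under salt and a larger part of the melatonin library. Together they took 0.0135% of the reads in NaCl (exact 95% binomial interval 0.0131 to 0.0139%), against 0.135% in H2O (0.134 to 0.137%). They took 0.0905% of the reads in NaCl+Mt (0.0896 to 0.0915%), against 0.938% in Mt (0.934 to 0.942%). The member with the highest level in Mt, Glyma10g34460.1, gave between 23.5% and 37.2% of the members' reads in a library. Without it the shares were 0.0103% in NaCl against 0.103% in H2O, and 0.0569% in NaCl+Mt against 0.676% in Mt. The rule fixed the direction of both differences in advance, and a high Mt level makes the limit in NaCl+Mt:Mt easier to meet. The shares are therefore a description, and their intervals cover counting error only.

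Levels of single members ranged over several orders of magnitude. The median member stood at 0.223 RPKM in NaCl against 2.72 RPKM in H2O, and at 1.68 RPKM in NaCl+Mt against 20.7 RPKM in Mt. The highest values were 22.3 RPKM in NaCl against 370.6 RPKM in H2O, and 227 RPKM in NaCl+Mt against 1771 RPKM in Mt. Only 2 members reached 10 RPKM in NaCl, against 19 in H2O, while 19 reached it in NaCl+Mt, against 88 in Mt. Of the 1000 transcripts with the most RPKM in a library, none in NaCl was a member, against 3 in H2O, and 1 in NaCl+Mt was a member, against 15 in Mt.

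The median member was 2.81 log2 units lower in NaCl:H2O, with members from -7.07 to -2.002, where the median of all transcripts tested was -0.14. It was 3.06 log2 units lower in NaCl+Mt:Mt, with members from -9.99 to -2.01 and a median of -0.09 over all transcripts tested. Put as a remainder, the median member kept 14.2% of its H2O level in NaCl and 12.02% of its Mt level in NaCl+Mt. At least 16-fold lower values were held by 23 members in NaCl:H2O and by 33 in NaCl+Mt:Mt, among those at 1 RPKM or more in 1 of the libraries compared.

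Glyma10g34460.1 had the most reads of any member in NaCl, NaCl+Mt and Mt. It had 21.8 RPKM in NaCl against 214 RPKM in H2O, and 227 RPKM in NaCl+Mt against 1771 RPKM in Mt, where it ranked 11 among all transcripts. It was 9.82-fold lower in NaCl:H2O (95% counting interval 9.17 to 10.5) and 7.79-fold lower in NaCl+Mt:Mt (7.64 to 7.94). The NaCl+Mt level lay beside that of H2O, while NaCl alone lay far under both.

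Glyma03g28850.1 was the most abundant member in H2O and had a different shape. It had 22.3 RPKM in NaCl against 370.6 RPKM in H2O, and 27.9 RPKM in NaCl+Mt against 572 RPKM in Mt. The differences were 16.6-fold (15.3 to 17.98) and 20.5-fold (19.3 to 21.9). Here both salt libraries were low to nearly the same level and both salt-free libraries were high.

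Glyma15g06800.1 had the largest NaCl:H2O difference of the set. It had 14 reads and 0.974 RPKM in NaCl against 1648 reads and 144 RPKM in H2O, a difference of 148-fold (88.2 to 272). With melatonin it had 13.4 RPKM in NaCl+Mt against 125 RPKM in Mt, which was 9.31-fold lower (8.13 to 10.7). It was among the 7 members whose H2O level exceeded the Mt level.

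The other abundant members were led by their level in Mt. Glyma13g22940.1 had 1.82 RPKM in NaCl against 14.4 RPKM in H2O, and 19.6 RPKM in NaCl+Mt against 889 RPKM in Mt. Glyma16g00980.1 had 6.76 RPKM in NaCl against 48.6 RPKM in H2O, and 105 RPKM in NaCl+Mt against 499.7 RPKM in Mt. Both had more RPKM in NaCl+Mt than in H2O, and Mt alone exceeded every other library by several fold. Glyma13g27050.1 had 10 reads and 0.432 RPKM in NaCl against 74 reads and 4.03 RPKM in H2O, and 5.88 RPKM in NaCl+Mt against 524 RPKM in Mt. Its 6.99 log2 units in Mt:H2O were the most of any member.

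Glyma17g11940.1 and Glyma02g47770.1 kept low levels in NaCl+Mt. The first had 5.80 RPKM in NaCl against 34.4 RPKM in H2O, and 10.3 RPKM in NaCl+Mt against 380.5 RPKM in Mt. Glyma02g47770.1 had 9.35 RPKM in NaCl against 68.1 RPKM in H2O, and 22.4 RPKM in NaCl+Mt against 250.6 RPKM in Mt. In both, the 2 salt libraries were the lowest. By contrast, Glyma17g05760.1, Glyma07g33950.1, Glyma18g49400.1 and Glyma09g37290.1 had from 16.5 to 43.4 RPKM in NaCl+Mt, above their 5.25 to 25.4 RPKM in H2O. In NaCl these 4 members had 0.321 to 5.93 RPKM, and in Mt they had 253 to 397 RPKM.

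**Figure D2:**
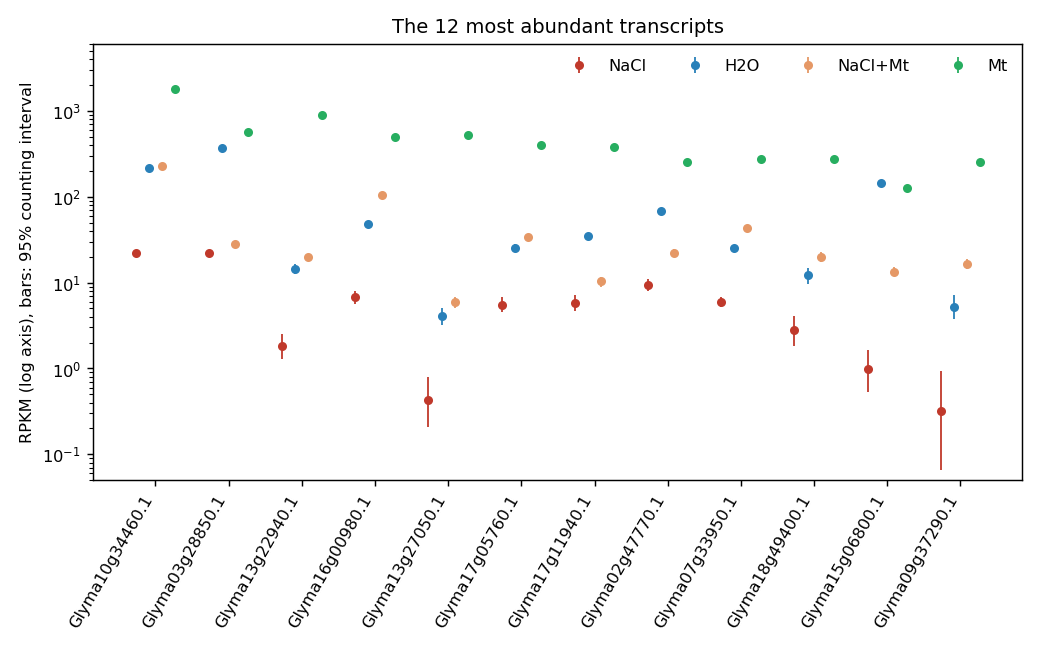
RPKM on a log axis of the 12 members with the highest mean level in H2O and Mt, in NaCl, H2O, NaCl+Mt and Mt from left to right within each transcript. Bars are 95% Poisson counting intervals of 1 library. Every transcript is lowest in NaCl, and Glyma03g28850.1 and Glyma15g06800.1 have the 2 smallest gaps between Mt and H2O.

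The 6 members with the largest weaker difference, ranked on RPKM + 1 so that low counts weigh less, included both models of the locus Glyma06g14190. The longer model, Glyma06g14190.1, had 0.511 RPKM in NaCl against 16.6 RPKM in H2O, and 3.62 RPKM in NaCl+Mt against 37.0 RPKM in Mt. The shorter, Glyma06g14190.2, had 0.577 RPKM in NaCl against 13.3 RPKM in H2O, and 2.74 RPKM in NaCl+Mt against 28.3 RPKM in Mt. The models share sequence and are not 2 independent observations.

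Many of the low values rested on a few reads. In NaCl 18 members had 0 reads and 31 more had 1 to 3, against none with 3 or fewer in H2O. In NaCl+Mt 3 had 0 reads and 7 more had 1 to 3, against none in Mt. With 3 reads taken as the floor of a library, a member of 1000 bases could be seen only above 0.104 RPKM in NaCl, 0.131 RPKM in H2O, 0.0812 RPKM in NaCl+Mt and 0.128 RPKM in Mt. Glyma02g03210.1, named here after its values were seen, had 0 reads in both salt libraries, against 24 in H2O and 2563 in Mt. It was at least 10.1-fold lower in NaCl:H2O and at least 1344-fold lower in NaCl+Mt:Mt. At the other end, Glyma05g31580.2, also named after its values were seen, met the limits with 1 read in NaCl against 5 in H2O and 1 in NaCl+Mt against 6 in Mt. Its ratio of 6.30-fold in NaCl:H2O had an interval of 0.705 to 298, so a difference was not detectable at this depth. Over the set, the interval lay above 2-fold in both comparisons for 117 members and above 4-fold in both for 54. The members were chosen on these same counts, so the 2 numbers describe read depth and are no check of the differences.

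Close to the limit, the members resembled transcripts that were left out. Among transcripts with at least 100 reads in H2O and Mt, the member nearest the limit was Glyma17g38120.1, with a weaker difference of 4.01-fold, followed by Glyma09g04340.1 at 4.08-fold and Glyma01g03940.1 at 4.11-fold. Just outside were Glyma18g48490.1 at 3.94-fold, Glyma13g38040.1 at 3.89-fold and Glyma19g34160.1 at 3.88-fold. Glyma17g38120.1 had 1.02 RPKM in NaCl against 4.40 RPKM in H2O, and 7.39 RPKM in NaCl+Mt against 35.5 RPKM in Mt. Glyma18g48490.1 had 4.24 RPKM in NaCl against 17.0 RPKM in H2O, and 8.38 RPKM in NaCl+Mt against 60.5 RPKM in Mt. The size of the set therefore depends on the limit and on the added value, and with 1 added in place of 0.1 the rule kept 24 transcripts.

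The differences with and without melatonin were of similar size in many members and unequal in others. They were within 2-fold of each other in 73 members, at least 2-fold deeper with melatonin in 31 and at least 2-fold deeper without it in 22. Among the 107 members with reads in all 4 libraries, the 2 log2 ratios of counts lay more than 1.96 standard errors of counting apart in 43. The deeper difference was with melatonin in 26 and without it in 17, and in 64 the gap was smaller. The rule had limited both ratios, and no allowance was made for the number of members. These counts are therefore a description and not a test. An unequal case with reads in all libraries was Glyma01g03940.1, with 2.08 RPKM in NaCl against 8.88 RPKM in H2O, and 0.862 RPKM in NaCl+Mt against 95.5 RPKM in Mt. It was 4.26-fold lower without melatonin (3.24 to 5.67) and 111-fold lower with it (79.8 to 159).

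Melatonin alone went with higher levels of most members. In Mt:H2O 100 of 126 members were at least 2-fold higher, where 20.9% of all 42935 transcripts tested were, and 1 was at least 2-fold lower, where 13.2% of all were. The remaining 25 were within 2-fold. The median over members was 2.41 log2 units higher and that over all transcripts tested 0.01 higher, and 53 members were at least 8-fold higher. Both libraries entered the rule on its high side, and a high Mt level makes the limit in NaCl+Mt:Mt easier to meet, so nothing particular to the set was read from this share. The 40 loci of a cell cycle list taken from the study moved in Mt as well. All 40 were at least 2-fold higher in Mt:H2O, their summed level was 363 RPKM in Mt against 22.5 RPKM in H2O, and 35.6 RPKM in NaCl+Mt against 40.5 RPKM in NaCl, and 0 loci in Mt against 5 in H2O had no reads. None of these loci was a member, the study chose them on these libraries, and their part in the result was not tested.

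Glyma19g02810.1 followed Glyma13g27050.1 in Mt:H2O, with 121 RPKM in Mt against 0.951 RPKM in H2O. Its salt libraries held 7.70 RPKM in NaCl+Mt and 0.0888 RPKM, or 2 reads, in NaCl. Glyma12g31280.1 had 111 RPKM in Mt against 1.03 RPKM in H2O, with 0.878 RPKM in NaCl+Mt and 1 read in NaCl. These transcripts were near the minimum of the rule in water and abundant in melatonin. The member at least 2-fold lower in Mt was Glyma11g15610.1, with 2.63 RPKM, or 15 reads, in Mt against 5.93 RPKM, or 33 reads, in H2O. Its salt libraries held 4 reads in NaCl+Mt and 2 in NaCl.

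Between the salt libraries, members stood higher with melatonin than without. In NaCl+Mt:NaCl 84 members reached 1 RPKM in 1 of the libraries, and a 2-fold or larger excess was seen in 71, a difference that 10.4% of all 39637 transcripts tested showed. One member was at least 2-fold lower, where 4.5% of all were, and 12 were within 2-fold. The median over the 126 members was 2.02 log2 units higher, against 0.06 over all transcripts tested. On the log2 scale this comparison equals Mt:H2O plus NaCl+Mt:Mt minus NaCl:H2O. It therefore shares its libraries with the rule and with the other comparisons. In NaCl 102 members lay under 1 RPKM, against 43 in NaCl+Mt, so many of the 84 passed the minimum only through NaCl+Mt. Nothing particular to the set was read from the 71 members.

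Glyma06g04740.1 had 18.2 RPKM and 180 reads in NaCl+Mt against 0 reads in NaCl, 46.9-fold higher with 3 reads in place of 0 (from 37.7). It had 158 RPKM in Mt against 2.94 RPKM in H2O. Glyma13g41650.1 had 5.92 RPKM and 242 reads in NaCl+Mt against 0 reads in NaCl, 63.0-fold higher on the same footing (from 50.9). It had 39.7 RPKM in Mt against 1.70 RPKM in H2O. In both, NaCl was empty while the other salt library exceeded water. Glyma01g03940.1 was the member at least 2-fold lower in NaCl+Mt:NaCl, at 0.862 RPKM against 2.08 RPKM. Glyma17g14930.1 and Glyma15g01500.1 hardly differed, with 2.39 RPKM in NaCl+Mt against 2.27 RPKM in NaCl for the first and 0.586 RPKM in NaCl+Mt against 0.522 RPKM in NaCl for Glyma15g01500.1.

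The order of the 4 libraries took 5 forms. The rule puts H2O above NaCl and Mt above NaCl+Mt. The highest library could therefore only be H2O or Mt, and the lowest only NaCl or NaCl+Mt. Mt was highest and NaCl lowest with H2O above NaCl+Mt in 66 members, and the same with NaCl+Mt above H2O in 46. Mt was highest and NaCl+Mt lowest in 7, of which 2 had 0 reads in both salt libraries, H2O was highest and NaCl lowest in 5, and H2O was highest and NaCl+Mt lowest in 2. Mt was thus the highest library for 119 members and H2O for 7, which restates the sign of Mt:H2O.

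The label of the set, salt-lowered regardless of melatonin, holds for each salt library against its own salt-free library, but not against water for every member. In NaCl+Mt:H2O 46 members were above water and 80 below. The median of all transcripts tested was also slightly below water, so nothing particular to the set was read from this division. Of 118 members at 1 RPKM or more in 1 of these libraries, 55 were at least 2-fold lower, where 3.97% of all 39662 transcripts tested were, 16 were at least 2-fold higher, where 4.97% were, and 47 were within 2-fold. The median over members was -0.78 log2 units, with members from -5.98 to 2.89, and the median over all transcripts tested was -0.07. Since H2O is on the high side of the rule, a surplus of lower values is in part fixed by it.

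**Figure D3:**
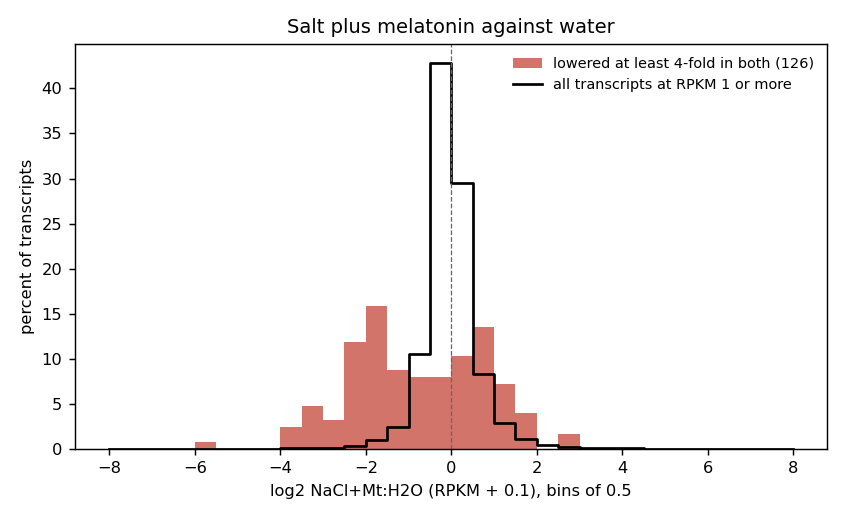
Distribution of log2 NaCl+Mt:H2O on RPKM + 0.1, in bins of 0.5, as a percent of the 126 members (red bars) and of all transcripts at 1 RPKM or more in 1 of the 2 libraries (black line). The members extend from -5.98 to 2.89, with 46 to the right of the dashed line at 0.

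The 46 members above water in NaCl+Mt had about the same level in the libraries without melatonin as the other 80. Their medians were 0.223 RPKM in NaCl against 2.72 RPKM in H2O, and 5.42 RPKM in NaCl+Mt against 63.4 RPKM in Mt. The 80 members below water had medians of 0.234 RPKM in NaCl against 2.71 RPKM in H2O, and 0.911 RPKM in NaCl+Mt against 12.3 RPKM in Mt. A member above water in NaCl+Mt and at least 4-fold lower in NaCl+Mt:Mt must also stand well above water in Mt, so the gap between these Mt medians is set by the rule and the division, and nothing was read from it. The member farthest below water was Glyma11g37800.1, named after its values were seen, with 0 reads in NaCl+Mt and 1 in NaCl, against 88 in Mt and 107 in H2O.

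**Figure D4:**
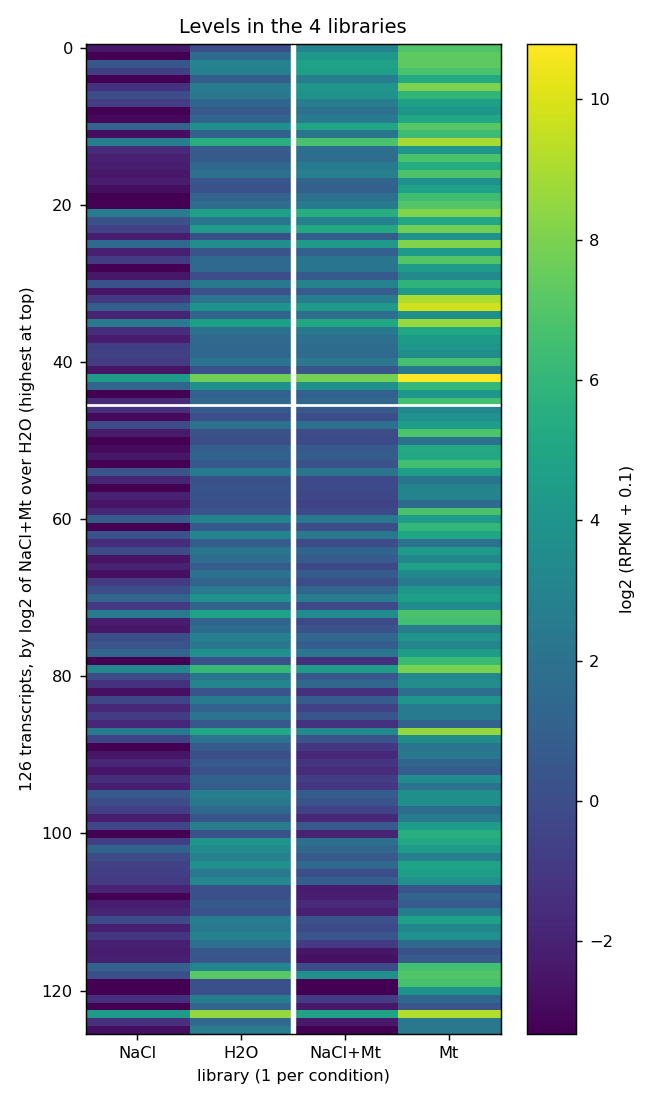
Log2 of RPKM + 0.1 of the 126 members (rows) in the NaCl, H2O, NaCl+Mt and Mt libraries (columns, 1 library each), ordered by log2 of NaCl+Mt over H2O. The white horizontal line parts the 46 members above water from the 80 below, and NaCl is the darkest column (lowest values) in 117 of the 126 rows.

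One member could be given a function from the annotation used by the study. Glyma07g05150.1 is PecMET, a pectin methylesterase, with 122 reads and 2.35 RPKM in NaCl against 547 reads and 13.3 RPKM in H2O, and 911 reads and 13.7 RPKM in NaCl+Mt against 2825 reads and 67.0 RPKM in Mt. It was 5.65-fold lower in NaCl:H2O (4.64 to 6.93) and 4.88-fold lower in NaCl+Mt:Mt (4.53 to 5.26). NaCl+Mt and H2O were level, at 13.7 and 13.3 RPKM, and Mt was 2.32 log2 units above H2O.

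The other PecMET locus, Glyma16g01650, was outside the set. It had 3.84 RPKM in NaCl against 5.43 RPKM in H2O, and 8.03 RPKM in NaCl+Mt against 49.0 RPKM in Mt. Thus the 2 PecMET loci were both lower in NaCl+Mt:Mt, by 2.28 log2 units for Glyma07g05150 and 2.59 for Glyma16g01650, whereas in NaCl:H2O the second was 0.49 log2 units lower. Of all 10 loci under a pectin methylesterase or pectinesterase symbol, 8 of 10 tested were at least 2-fold lower in NaCl+Mt:Mt, where 19.3% of all transcripts tested were, and none was at least 2-fold higher, where 10.9% were. In NaCl:H2O 2 of 6 tested were at least 2-fold lower, where 12.1% of all were, and 1 was higher, where 7.12% were. In Mt:H2O 9 of 10 were at least 2-fold higher, where 20.9% of all transcripts tested were. The 10 loci include the member, and the study picked them on these libraries.

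Glyma06g47200, an ATPMEPCRB like pectinesterase, was low in NaCl only. It had 0.961 RPKM in NaCl against 14.7 RPKM in H2O, and 15.9 RPKM in NaCl+Mt against 22.2 RPKM in Mt. Glyma19g40020, of the same symbol, had 3.23 RPKM in NaCl against 1.75 RPKM in H2O, and 2.60 RPKM in NaCl+Mt against 99.0 RPKM in Mt. PecEST Glyma17g04940 had 0.979 RPKM in NaCl against 1.12 RPKM in H2O, and 13.9 RPKM in NaCl+Mt against 12.3 RPKM in Mt. The family therefore held several patterns, of which the member's was 1.

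**Figure D5:**
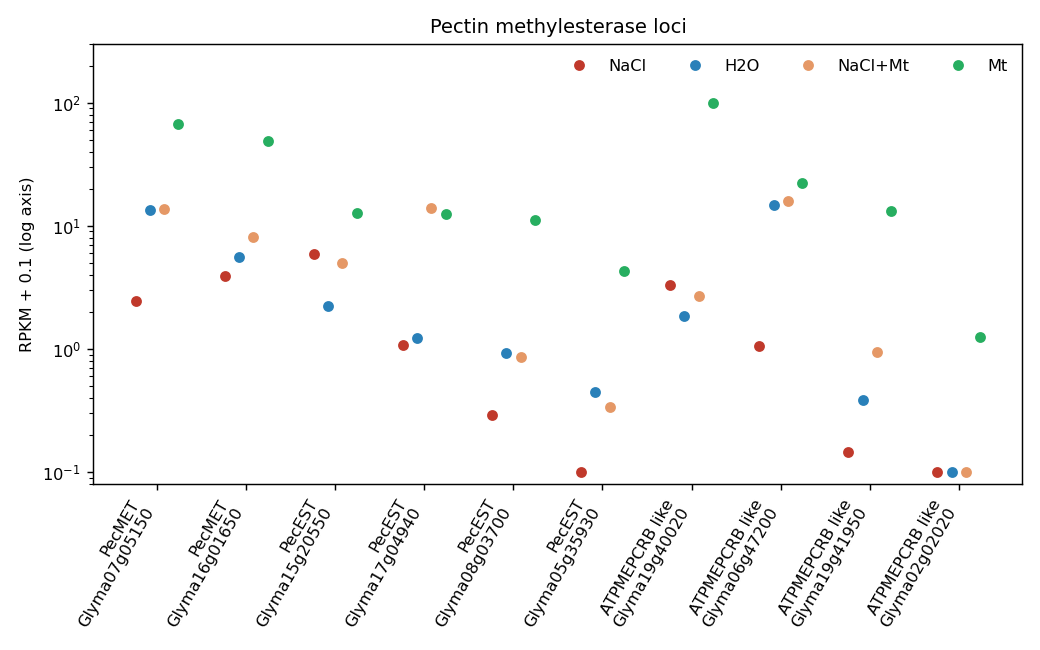
RPKM + 0.1 on a log axis of the 10 pectin methylesterase and pectinesterase loci, in NaCl, H2O, NaCl+Mt and Mt from left to right within each locus, 1 library each. Glyma07g05150, the member of the set, is at 2.35 RPKM in NaCl and 13.3 RPKM in H2O, with NaCl+Mt at 13.7 RPKM beside water.

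Pathway lists of the study covered 211 loci, chosen by its authors on these libraries, and held that 1 member. At the milder limit of 2-fold lower in both comparisons, 7 of the 138 listed loci tested in both qualified, against 1.83% of all 38987 transcripts tested in both. Besides PecMET, 4 were in starch and sucrose metabolism. BGLU Glyma15g03620, a beta-glucosidase that releases glucose from glucosides, had 2 reads and 0.0562 RPKM in NaCl against 415 reads and 14.7 RPKM in H2O, and 7.51 RPKM in NaCl+Mt against 26.8 RPKM in Mt. UGT Glyma19g03000, listed as a glucuronosyltransferase, had 1.27 RPKM in NaCl against 17.6 RPKM in H2O, and 5.12 RPKM in NaCl+Mt against 10.5 RPKM in Mt. Both were low in NaCl and fell short of the 4-fold limit only with melatonin. The others were otsB Glyma11g38230, which removes phosphate from trehalose 6-phosphate, and HK Glyma11g10130, a hexokinase that phosphorylates glucose. Outside that list were APX4 Glyma02g37160, an ascorbate peroxidase, and ALDEP Glyma09g30670, an aldose 1-epimerase. Of the 60 starch and sucrose loci as a whole, 16 of 41 tested were at least 2-fold lower in NaCl:H2O, where 12.1% of all transcripts were, and 8 were higher, where 7.12% were. In NaCl+Mt:Mt 46 of 60 tested were at least 2-fold lower, where 19.3% of all were, and 8 were higher, where 10.9% were.

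Members were spread over all 20 chromosomes, with 1 on a scaffold outside them. Chromosome 9 held 14 of its 1762 eligible transcripts (0.795%) and chromosome 10 held 3 of 2043 (0.147%), against 0.336% of all eligible transcripts. These were the highest and the lowest share of the 20 chromosomes. Of the 14, 3 were models of 1 locus, Glyma09g31110. Nothing particular to a chromosome was read from these shares. Neighbouring locus numbers were members in 2 places. On chromosome 3, Glyma03g28720.1 had 0 reads in NaCl against 2.78 RPKM in H2O, and 4.46 RPKM in NaCl+Mt against 21.7 RPKM in Mt. Its deposited RPKM was 0 in all 4 libraries, despite 51 reads in H2O, 132 in NaCl+Mt and 409 in Mt. Its membership, and so this pair, rests on the recomputed RPKM. The adjoining Glyma03g28740.1 had 0.581 RPKM in NaCl against 22.5 RPKM in H2O, and 37.5 RPKM in NaCl+Mt against 208 RPKM in Mt. The order of the libraries was the same in the pair, with NaCl lowest and NaCl+Mt above H2O, and another member of this stretch, Glyma03g28850, followed with 5 loci between. The next locus, Glyma03g28750, was no member and had 8.76 RPKM in NaCl against 10.001 RPKM in H2O, and 10.1 RPKM in NaCl+Mt against 8.69 RPKM in Mt.

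On chromosome 14 the pair was Glyma14g06980 and Glyma14g06990. Glyma14g06980.1 had 0 reads in NaCl against 68 in H2O, and 0.916 RPKM in NaCl+Mt against 65.2 RPKM in Mt. With 3 reads in place of 0, it was 28.6-fold lower in NaCl:H2O (from 22.6). Glyma14g06990.1 had 0 reads in NaCl against 162 in H2O, 68.0-fold lower on the same footing (from 54.7), and 5.56 RPKM in NaCl+Mt against 130 RPKM in Mt. Both were empty in NaCl and highest in Mt, while NaCl+Mt lay below H2O in the first and above it in Glyma14g06990.1. The counts are described in the study's methods as uniquely mapped reads, which leaves out reads that match both loci of a pair equally well.

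The members were short. Their median length was 805.5 bases, against 1074 over the eligible transcripts and 939 over those at least 4-fold lower in NaCl:H2O only. Members under 500 bases were 33, or 26.2%, against 13.4% of the eligible transcripts. Of all models, 95.8% had a length that is a multiple of 3, so these are coding lengths. Short models collect fewer reads at a given RPKM, and 49 members had at most 3 reads in NaCl. The part of length in the membership was not tested.

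Of the 119 loci, 104 had 1 model and 15 had several. In 6 of the 15 more than 1 model was a member, and of the 11 models left out 7 were at least 2-fold lower in both comparisons. At the locus Glyma13g38040 the model Glyma13g38040.2 was a member and Glyma13g38040.1 was just outside, at 3.89-fold. Models of a locus share sequence. The methods of the study describe the counts as reads mapped uniquely to a gene, and how a read that lies in several models of 1 gene was counted was not given in the sources used here.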

How the data were processed

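The authors trimmed adaptors and low-quality reads, mapped them to the soybean genome with BWA (version 0.7.4 in the submitters' processing notes) and deposited, per transcript model, a length, a read count and an RPKM for each of 4 libraries. The genome build and the counting tool were not given in the sources used here. Some models with reads were listed at a deposited RPKM of 0 (48 members in NaCl, 2 in H2O, 12 in NaCl+Mt and 1 in Mt). RPKM was therefore recomputed from the counts, the length and the sum of each count column. The members and lists were chosen with earlier results of these data known.

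Log2 differences used RPKM + 0.1, counts of 2-fold changes required 1 RPKM in 1 of the libraries compared, and lists took loci annotated in the study. Fold values given with an interval are ratios of RPKM with nothing added, except that 3 reads were put in place of 0 where stated. They carry exact conditional 95% counting intervals, shares exact binomial and levels Poisson intervals. These cover counting error only, as the reads carry no molecular identifiers. With 1 library per condition no test was run.

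Named members were the 12 most abundant in H2O and Mt, the 6 with the largest weaker difference on RPKM + 1, those at listed loci, 3 on either side of the limit, the 3 highest and lowest of NaCl+Mt:NaCl and of Mt:H2O with at least 20 reads, and adjoining loci. A planned grouping by gene family and a promoter motif search were not run, since none of the names tables used here paired these identifiers with names. The scripts were tested on simulated data. The transcripts lowered there fell further than the median member and excluded low levels, so weakly expressed transcripts near the limit were not covered. Python 3.11.15, numpy 2.4.6, pandas 2.3.3 and scipy 1.17.1 were used.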

Additional observations from a re-analysis of the deposited data

How the results depend on the processing

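Of the 126 members, 24 were kept with a pseudocount of 1, 31 at a limit of 8-fold, 41 at a minimum of 5 and 54 where both counting intervals had to lie above 4-fold, while a limit of 2-fold gave 749 transcripts and no minimum gave 221. The deposited RPKM gave 124, of which 94 were shared, and median-of-ratios scaling gave 105, all shared. Setting NaCl+Mt against H2O in place of Mt, chosen after seeing the data, gave 90, of which 29 were shared. The median NaCl:H2O difference of -2.81 was -3.26 with a pseudocount of 0.01, -1.54 with 1, -3.19 on the deposited RPKM and -2.53 with counts under 3 set to 3. With a pseudocount of 1 the medians were -2.45 in NaCl+Mt:Mt and 0.95 in NaCl+Mt:NaCl, and 0 members were at least 2-fold lower in NaCl+Mt:NaCl and 0 in Mt:H2O. No median, and no named member's difference of 2-fold or more, changed sign under the alternatives run, and 95 of 925 values of named members moved beyond their counting interval, 58 of them with a pseudocount of 1. No paired analysis was possible because the labels give no replicate numbers and each condition had 1 library, and for the same reason no replicate could be left out.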
